A study of Mus musculus with 10 samples.

Results

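The subject is a set of 10 genes of calcium handling in the heart muscle cell, most of them at its sarcoplasmic reticulum. They include the pump gene Atp2a2, its micropeptide regulators Pln, Strit1 and Sln, and the lumenal calcium-binding proteins Hrc and Casq2. The others are the release channel Ryr2 with its partners Trdn and Asph, and the sodium-calcium exchanger Slc8a1 of the surface membrane. The genes were chosen by name, with earlier results of these data known. All 10 were found among the 11790 genes of the deposited table. RNA had been sequenced from 10 mouse hearts, and the mice, aged 10 to 11 weeks, had been killed randomly fed. In 5 of the mice, named A-PDK1KO, the 3′-phosphoinositide-dependent kinase PDK1 (gene Pdpk1) was deleted in adipocytes, and the 5 controls were PDK1 flox/flox. The label of the controls gives the floxed allele alone, and what drove the deletion is not stated in the sources used here. The deletion was made in fat cells and the tissue is heart, so Pdpk1 in these libraries does not check it: it was at 3.14 to 3.77 FPKM in controls and 2.73 to 4.04 FPKM in A-PDK1KO hearts. Values are FPKM, that is fragments scaled to the length of the gene and to all counted fragments of the library. The 95% intervals printed for single hearts cover counting error only, as PCR reads without molecular identifiers are not independent molecules.

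In a working heart muscle cell a small calcium current opens the ryanodine receptor, stored calcium floods out and the myofilaments contract. Relaxation follows when the pump SERCA returns calcium to the reticulum and the exchanger carries the rest out of the cell. Phospholamban and sarcolipin are short membrane peptides that slow the pump, and DWORF, the product of Strit1, is a short membrane peptide that competes with phospholamban and so raises pump activity.

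The coding sequences of the 3 micropeptides are shown because these short peptides act on the pump. Changes of the 3 genes were not tested against each other. They were read from GENCODE mouse release M21 transcripts, which use the mm10 coordinates, and are written 5′ to 3′ with the start and stop codons in capitals.
Strit1: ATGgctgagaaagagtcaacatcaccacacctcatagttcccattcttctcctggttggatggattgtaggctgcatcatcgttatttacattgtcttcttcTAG
Pln: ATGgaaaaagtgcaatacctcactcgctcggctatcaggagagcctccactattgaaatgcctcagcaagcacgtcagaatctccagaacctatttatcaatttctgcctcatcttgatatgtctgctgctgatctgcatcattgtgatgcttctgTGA
Sln: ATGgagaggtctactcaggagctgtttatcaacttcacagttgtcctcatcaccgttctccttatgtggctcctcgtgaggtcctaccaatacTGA
The reading frames hold 34, 52 and 31 codons before the stop. That of Strit1 (chr3:63481290-63483827, minus strand) is split over 2 exons, while those of Pln (chr10:53343864-53344022, plus strand) and Sln (chr9:53853473-53853568, plus strand) each lie in 1 exon. The annotated transcript of Strit1, listed there as Gm34302, is 243 bases long. Merged exons came to 2759 bases in Pln and 1318 bases in Sln. No other annotated gene overlaps Strit1 or Sln. An intronic transcript on the opposite strand, Gm47644, shares 1644 exon bases with Pln, and whether reads were counted by strand is not stated, so reads of the pair cannot be told apart there. Gm47644 stood at 24.8 FPKM on average, far below Pln.

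Of the 10 genes, Strit1 was higher in A-PDK1KO hearts, 2.14-fold by group means, and the other 9 did not pass the test. That 1 call was lost in 7 of 10 fits with 1 heart left out, with robust variances, and in the 6 hearts with Myl7 under 10 FPKM. The pump gene Atp2a2 was lower in all 5 A-PDK1KO hearts than in 4 of the 5 controls, and it passed the test only when the other control was left out. The inhibitor Pln had nearly the same level in both groups, and Sln was detected only in hearts that also carried the atrial light chain Myl7. Calls were made with limma on log2(FPKM + 1), A-PDK1KO minus control, at a Benjamini-Hochberg adjusted p under 0.05 over 9987 tested genes. Of these, 2.08% were called (1.21% higher and 0.871% lower), beside 1 of the 10 members. All 10 members passed the filter of a mean of at least 1 FPKM over the 10 hearts. Their median log2 fold change was -0.02, against 0.02 over all tested genes, with 4 above 0 and 6 below. Without adjustment 3 members (Strit1, Atp2a2 and Asph) had a p under 0.05, against 15.6% of all tested genes. The groups did not overlap in 1 member, Strit1, against 4.96% of all tested genes. As the members were chosen with earlier results known, these shares do not compare all genes with an independently picked set. The p-values measure the spread between these hearts, which the labels number 1 to 5 in each group, and in whole tissue fewer cells of a type and less RNA per cell cannot be told apart.

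**Figure D1:**
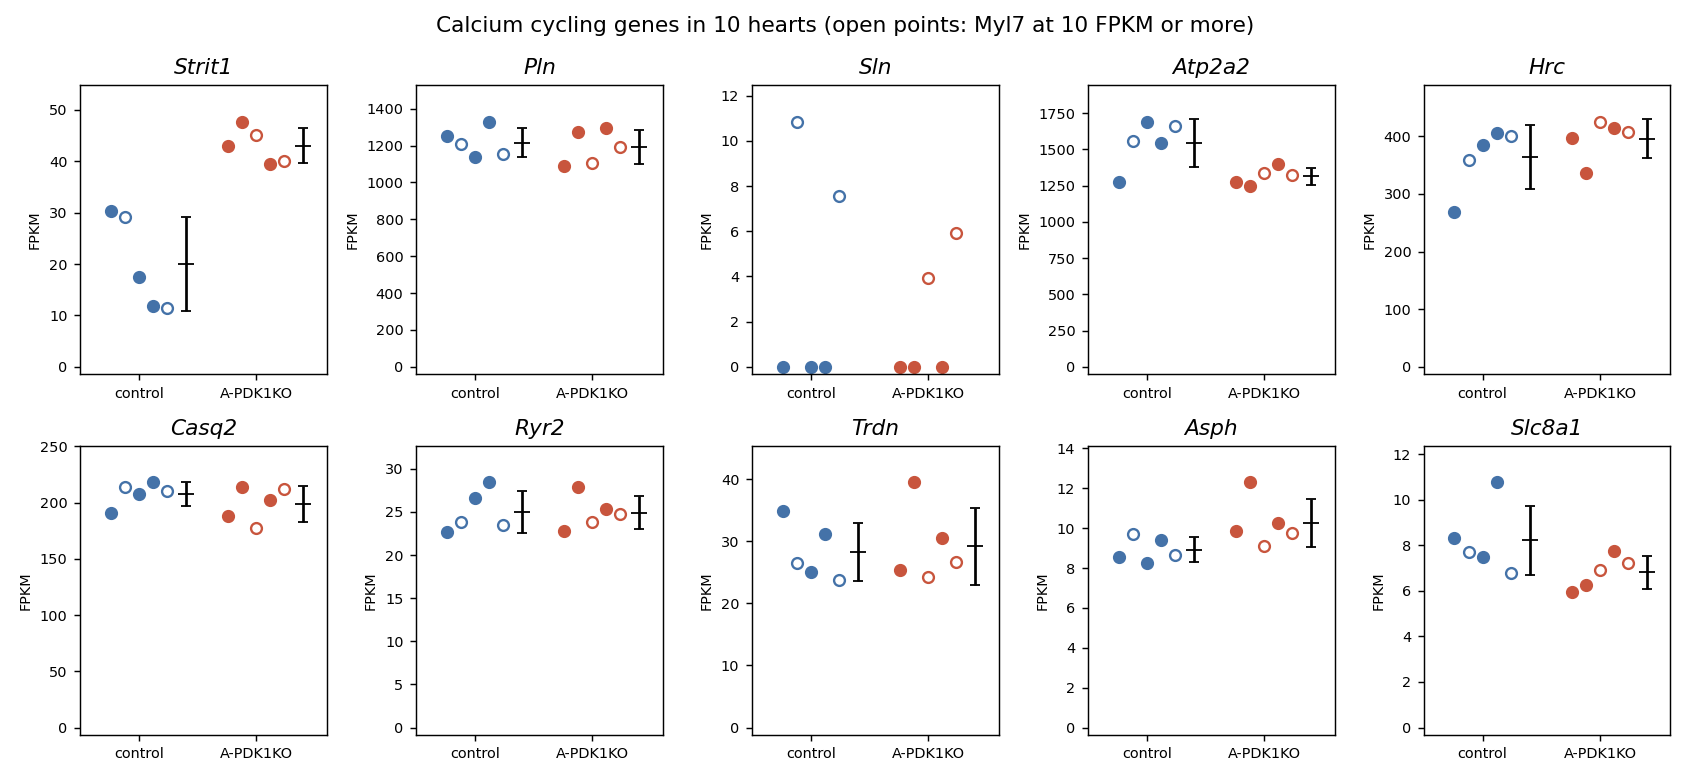
FPKM of the 10 genes in each heart, control in blue and A-PDK1KO in red, with bars for mean ± SD (n = 5 per group; no bar where a heart was at 0); open points are the 4 hearts with Myl7 at 10 FPKM or more. Strit1 is the panel in which the groups do not overlap, and Sln is above 0 in the open points alone.

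Strit1 (chr3:63481112-63483879 in mm10) encodes DWORF, the micropeptide that counteracts phospholamban. Control hearts 1 to 5 read 30.3, 29.2, 17.5, 11.9 and 11.5 FPKM, and A-PDK1KO hearts 1 to 5 read 42.9, 47.7, 45.1, 39.4 and 40.1 FPKM. Every A-PDK1KO heart lay above every control. The controls were spread over a 2.63-fold range and the A-PDK1KO hearts over a 1.21-fold range, with coefficients of variation of 45.5% and 8.02%. Means were 20.1 ± 9.13 and 43.0 ± 3.45 FPKM (SD, n = 5 per group), and the log2 fold change was 1.17 ± 0.24 SE (95% interval 0.66 to 1.69, limma adjusted p = 0.0299). The gene is short, so these levels rest on few reads, 28 to 72 per control and 100 to 121 per A-PDK1KO heart. The exact Poisson interval was 7.92 to 17.2 FPKM in control replicate 4. It was 23.5 to 38.4 FPKM in control replicate 1, the highest control, and 32.4 to 47.5 FPKM in A-PDK1KO replicate 4, the lowest of its group, so those intervals overlapped.

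The size of the Strit1 difference was steady and its call was not. With 1 heart left out the log2 fold change ran from 1.01 to 1.34, while the adjusted p ran from 0.0197 to 0.0711 and passed in only 3 of 10 fits. Those 3 left out control replicate 1, control replicate 2 or A-PDK1KO replicate 4, and the highest adjusted p came without control replicate 3. Robust variances gave an adjusted p of 0.0651. A test on the recovered reads (limma voom) gave a log2 fold change of 1.22 and an adjusted p of 0.0109. In the 6 hearts with Myl7 under 10 FPKM the group means were 19.9 and 43.3 FPKM, and in the other 4 they were 20.4 and 42.6 FPKM. With only 3 hearts per group, those 6 gave a log2 fold change of 1.18 and an adjusted p of 0.201. Across the 431 tested genes of up to 500 bases, Strit1 among them, the median log2 fold change was -0.08, and 3 were called higher and 3 lower. After a trend with gene length was removed from each heart, a setting added after seeing the data, the log2 fold change of Strit1 was 1.27 (adjusted p = 0.0156).

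**Figure D2:**
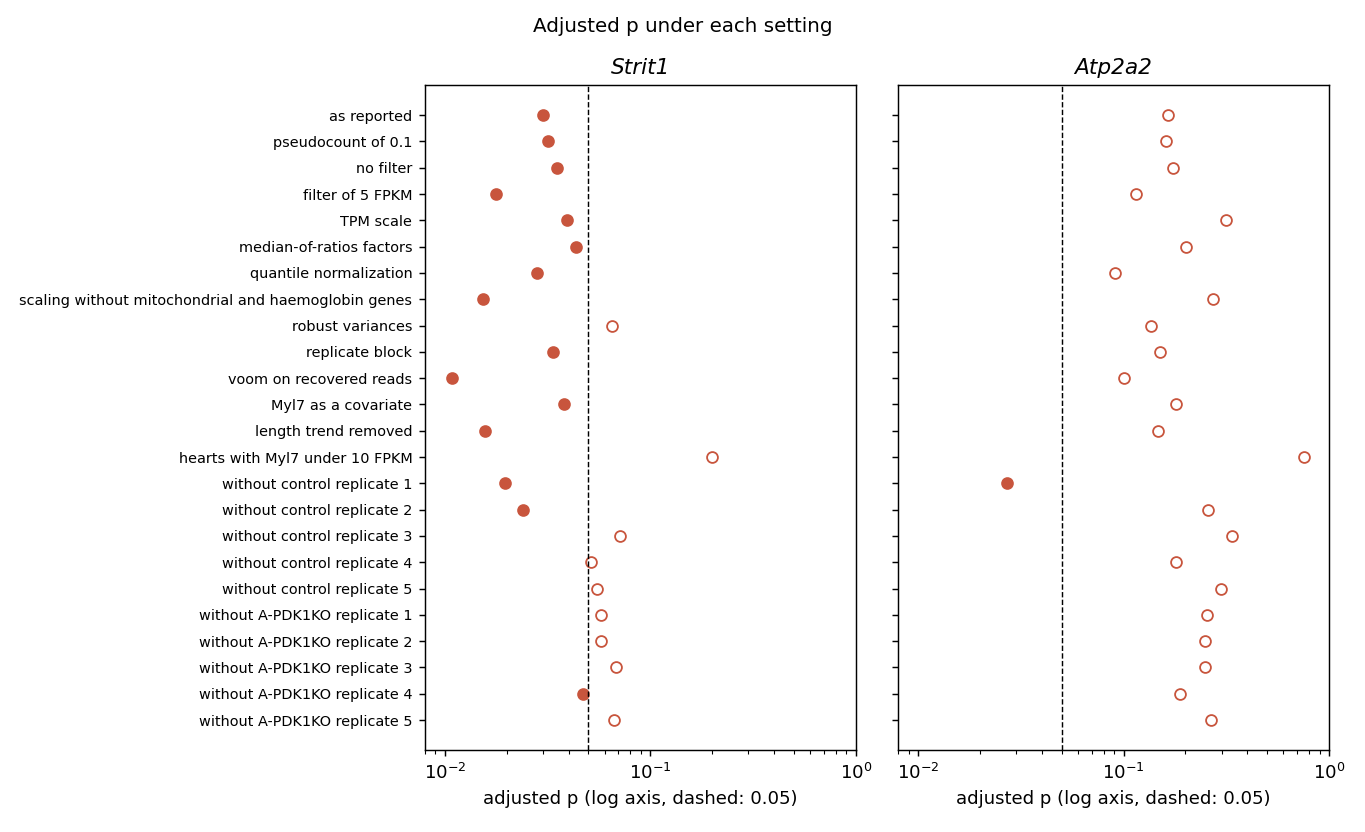
Adjusted p of Strit1 (left) and Atp2a2 (right) on a log axis under each setting, with the dashed line at 0.05 and filled points below it. Strit1 sits near the line, between 0.0109 and 0.0711 apart from the comparison of 3 against 3 hearts at 0.201, and Atp2a2 crosses it only without control replicate 1.

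Pln (chr10:53337667-53345987) encodes phospholamban, whose brake on the pump is released when it is phosphorylated. Control hearts 1 to 5 read 1250.5, 1209.9, 1141, 1329.9 and 1152 FPKM, and A-PDK1KO hearts 1 to 5 read 1092, 1276, 1107, 1297 and 1192 FPKM. The groups overlapped, with 2 of 5 A-PDK1KO hearts below every control and control replicate 4 above every A-PDK1KO heart. Means were 1217 ± 77.4 and 1193 ± 94.1 FPKM, and the log2 fold change was -0.03 with a 95% interval of -0.18 to 0.12 (limma adjusted p = 0.888, n = 5 per group). Its sign turned, to 0.04, once the scaling skipped mitochondrial and haemoglobin genes. From 28882 to 40727 reads per heart lay behind these values, so counting error was small.

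Sln (chr9:53850164-53854560) encodes sarcolipin, the pump regulator of atrial and skeletal muscle. Control hearts 2 and 5 had 10.9 and 7.58 FPKM of it and A-PDK1KO hearts 3 and 5 had 3.91 and 5.93 FPKM, from 57 to 145 reads. In the other 6 hearts it had 0 reads, which allows up to 0.200 to 0.246 FPKM at 3 reads. Myl7, the regulatory light chain of atrial myosin, was at 85.9, 71.3, 35.0 and 47.6 FPKM in the same 4 hearts and at 0 to 0.877 FPKM in the other 6. In the 4 hearts Sln stood at 12.6%, 10.6%, 11.2% and 12.5% of Myl7 on the FPKM scale, a narrow band across both genotypes. Myl4, another atrial light chain, was at 6.09 to 13.7 FPKM in the 4 hearts and at 0.0675 to 0.310 FPKM in the other 6. Nppa, the atrial natriuretic peptide that ventricles also express, did not follow this division, at 139 to 492 FPKM in the 4 and 214 to 486 FPKM in the 6. The log2 fold change of Sln between genotypes was -0.32 with a 95% interval of -2.11 to 1.48 (limma adjusted p = 0.909), and it turned positive without control replicate 2 (0.24) or control replicate 5 (0.13). Markers of fast skeletal muscle were near the floor: of 8 listed genes 2 were in the table, Pvalb being the higher. Their sum was 0.207 to 1.72 FPKM in controls and 0.697 to 4.46 FPKM in A-PDK1KO hearts. Of 3 listed genes of slow skeletal muscle 2 were found, Tnnt1 being the higher, and 0 were called by limma. These summed to 6.59 to 9.64 FPKM in controls and 3.78 to 7.47 FPKM in A-PDK1KO hearts, so hearts without Sln reads had them too. Tnnt1 was at 5.55 to 6.57 and 2.84 to 5.38 FPKM, without overlap (limma adjusted p = 0.0641). Whether skeletal muscle was present was not tested.

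**Figure D3:**
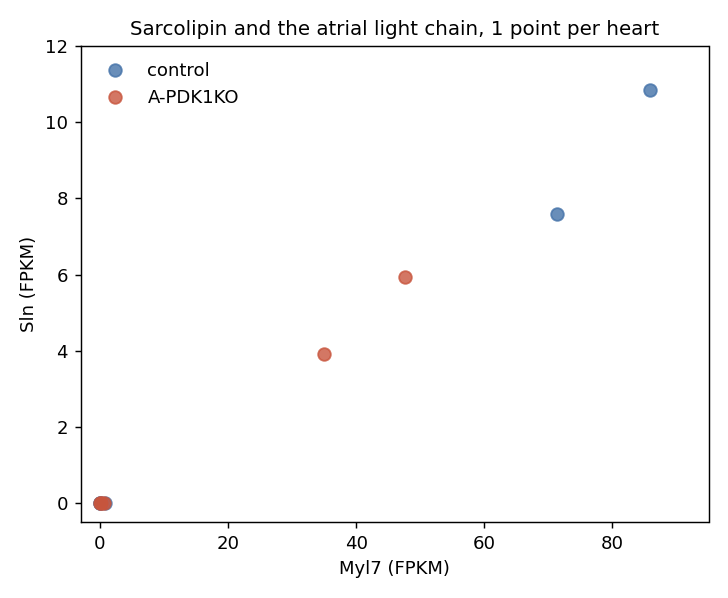
Sln against Myl7, both in FPKM, with 1 point per heart, control in blue and A-PDK1KO in red. The 4 hearts with Myl7 at 35.0 FPKM or more hold all of the Sln signal, and 6 hearts lie at or next to the origin.

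The other 9 genes were found in all 10 hearts. Pln was at 1107 to 1209.9 FPKM in the 4 hearts with atrial signal and at 1092 to 1329.9 FPKM in the other 6. Atp2a2 was at 1322 to 1662 FPKM in the 4 and 1247 to 1692 FPKM in the 6. Casq2 was at 177 to 213 FPKM and 188 to 218 FPKM, and Ryr2 at 23.4 to 24.7 FPKM and 22.7 to 28.4 FPKM. The ranges of the 4 and the 6 hearts overlapped in each of the 9 genes. The genotype means of Asph were 8.73 and 10.8 FPKM in the 6 hearts and 9.20 and 9.44 FPKM in the 4. Those of Slc8a1 were 8.86 and 6.64 FPKM in the 6 hearts and 7.25 and 7.07 FPKM in the 4. In the 6 hearts the log2 fold changes were 0.28 for Asph and -0.36 for Slc8a1, neither called (limma adjusted p = 0.591 and 0.556), and whether the difference depends on atrial signal was not tested.

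Atp2a2 (chr5:122453513-122502225, minus strand) encodes SERCA2, the pump that refills the store. Control hearts 1 to 5 read 1272, 1560.4, 1692, 1543 and 1662 FPKM, and A-PDK1KO hearts 1 to 5 read 1276, 1247, 1337, 1396 and 1322 FPKM. Control replicate 1 lay among the A-PDK1KO hearts, and the other 4 controls lay above all 5 of them. Means were 1546 ± 166 and 1316 ± 57.7 FPKM, a log2 fold change of -0.23 ± 0.08 SE (95% interval -0.39 to -0.06) that did not pass (limma adjusted p = 0.165, n = 5 per group). Without control replicate 1 it was -0.30 and passed (adjusted p = 0.0272). In the other 9 fits with 1 heart left out and in all 13 other settings it did not pass. General cardiomyocyte markers, among them Actc1, cardiac actin, had log2 fold changes below 0 in 6 of 6 genes. Of these markers 0 were called by limma and 2 had an unadjusted p under 0.05, against 15.6% of all tested genes. Without mitochondrial and haemoglobin genes in the scaling 4 of the 6 were below 0, and after quantile normalization 5 of 6. Of the 6, Tnni3 was called with the filter of 5 FPKM, with robust variances and with limma voom on recovered reads (adjusted p = 0.0408, 0.0441 and 0.0390). Their sum was 7629 to 9831 FPKM in controls and 7442 to 8882 FPKM in A-PDK1KO hearts, and the part of this in the Atp2a2 values was not tested.

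Hrc and Casq2 encode the proteins that bind calcium inside the reticulum. Hrc, the histidine-rich calcium-binding protein (chr7:45335290-45338974), read 269, 359, 386, 407 and 401 FPKM in controls 1 to 5, and A-PDK1KO hearts 1 to 5 read 396, 337.2, 425, 414 and 408 FPKM. The lowest heart was control replicate 1, which was also the lowest control in Atp2a2, and the groups overlapped. Its log2 fold change was 0.13 with a 95% interval of -0.10 to 0.37 (limma adjusted p = 0.618), and 0.03 without control replicate 1. Casq2, cardiac calsequestrin, the main calcium buffer of the store (chr3:102086415-102146514), varied least within the controls, at 208 ± 10.6 FPKM, and stood at 199 ± 15.8 FPKM in A-PDK1KO hearts (SD, n = 5 per group). Controls lay between 190.3 and 218 FPKM and A-PDK1KO hearts between 177 and 214 FPKM, with a 95% interval of the log2 fold change of -0.21 to 0.07.

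The release unit showed no difference that passed. Ryr2, the ryanodine receptor through which stored calcium leaves (chr13:11553102-12106945), read 22.7, 23.9, 26.6, 28.4 and 23.4 FPKM in controls 1 to 5, and A-PDK1KO hearts 1 to 5 read 22.8, 27.9, 23.9, 25.3 and 24.7 FPKM. The 2 sets of values covered nearly the same range, and the log2 fold change was -0.00273, with a 95% interval of -0.17 to 0.17. Its sign turned on the TPM scale (0.00531), after quantile normalization (0.0205) and without mitochondrial and haemoglobin genes in the scaling (0.0618). Trdn, triadin, which ties calsequestrin to the channel (chr10:33080554-33476709), lay between 23.8 and 34.9 FPKM in controls and between 24.2 and 39.5 FPKM in A-PDK1KO hearts, with the highest value in A-PDK1KO replicate 2. Its log2 fold change was 0.04 (95% interval -0.26 to 0.33), and -0.07 without that heart. Its sign also turned after removal of the length trend (-0.00949).

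Asph (chr4:9448069-9669344) encodes junctin, the partner of triadin at the channel, together with junctate and an aspartyl hydroxylase, and values summed over the gene do not separate these products. Control hearts 1 to 5 read 8.53, 9.73, 8.24, 9.41 and 8.67 FPKM, and A-PDK1KO hearts 1 to 5 read 9.88, 12.3, 9.11, 10.3 and 9.76 FPKM. In 4 of 5 A-PDK1KO hearts it was above every control, and A-PDK1KO replicate 2 was highest. The log2 fold change was 0.18 ± 0.08 SE (limma adjusted p = 0.320, n = 5 per group). Without A-PDK1KO replicate 2 it was 0.12. The gene Clvs1 on the opposite strand shares 2302 exon bases with Asph.

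Slc8a1 (chr17:81373105-81738377, minus strand) encodes the exchanger NCX1, which carries calcium out across the surface membrane. Control hearts 1 to 5 read 8.33, 7.71, 7.50, 10.8 and 6.80 FPKM, and A-PDK1KO hearts 1 to 5 read 5.93, 6.24, 6.93, 7.73 and 7.22 FPKM. Control replicate 4 was the highest heart, and 2 of 5 A-PDK1KO hearts lay below every control. Means were 8.22 ± 1.52 and 6.81 ± 0.730 FPKM, with a log2 fold change of -0.23 and a 95% interval of -0.47 to 0.01 (limma adjusted p = 0.338, n = 5 per group). Without control replicate 4 the log2 fold change was -0.14.

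**Figure D4:**
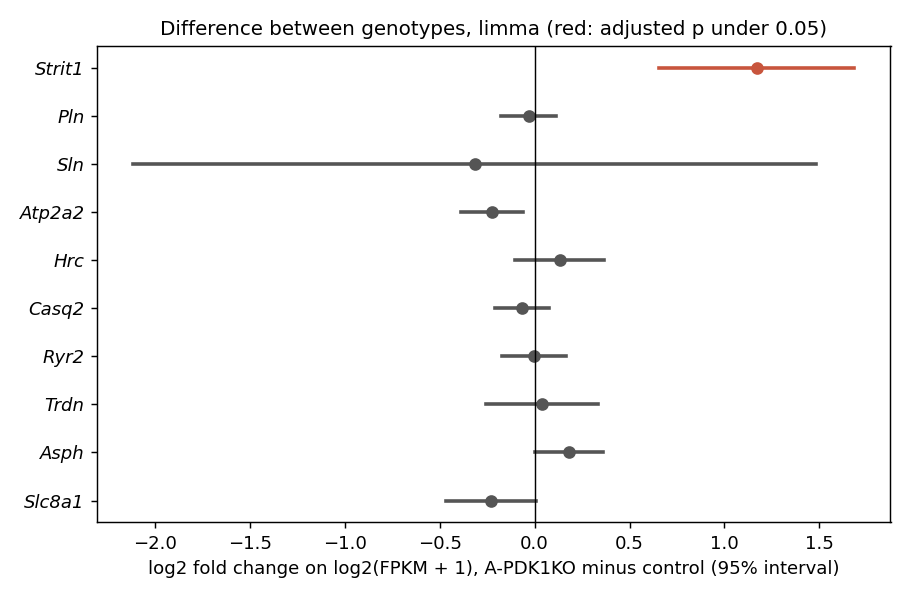
Log2 fold change of each gene on the log2(FPKM + 1) scale, A-PDK1KO minus control, with its 95% interval from limma. The interval of Strit1, 0.66 to 1.69, is the one that lies far from 0, and that of Sln, -2.11 to 1.48, is the widest.

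Per kilobase of merged exons and averaged over the 10 hearts, Atp2a2 (1431 FPKM) and Pln (1205 FPKM) were the highest of the set. They ranked 28 and 31 among all genes of the table, and their ranges over hearts overlapped. Hrc followed at 380.2 FPKM and Casq2 at 203 FPKM, each separate from its neighbours. Strit1 (31.6 FPKM), Trdn (28.8 FPKM) and Ryr2 (25.0 FPKM) came next with overlapping ranges. Their order differed between genotypes: Strit1 averaged less than both in controls (20.1 against 28.3 and 25.0 FPKM), where the ranges overlapped. In A-PDK1KO hearts it averaged more than both (43.0 against 29.3 and 24.9 FPKM), with a range that met that of Trdn and lay apart from that of Ryr2. Asph (9.59 FPKM) was lower than these, and its range overlapped that of Slc8a1 (7.52 FPKM), which overlapped that of Sln (2.83 FPKM). Levels of Asph, Ryr2 and Slc8a1 are spread over 16102, 28790 and 18807 bases of merged exons from 20, 14 and 6 annotated transcripts, which lowers FPKM where single transcripts are shorter. Strit1 has 243 bases, and its FPKM makes no allowance for fragment length, so its place among longer genes is approximate.

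Ratios within a heart do not depend on how the library was scaled. Two-sided exact permutation tests of 5 ratios ran over all groupings of 5 against 5, whose smallest p is 0.00794, and p-values were adjusted over the 5 ratios. The ratio of Strit1, the activator, to Atp2a2, the pump, was 0.0238, 0.0187, 0.0103, 0.00772 and 0.00693 in control replicates 1 to 5 and 0.0336, 0.0383, 0.0337, 0.0282 and 0.0304 in A-PDK1KO replicates 1 to 5. It was higher in all 5 A-PDK1KO hearts than in any control, 2.43-fold by means (log2 difference 1.45, exact permutation p = 0.00794, adjusted p = 0.0397, n = 5 per group). That ratio repeats the Strit1 difference above and is not separate support for it.

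The ratio of Pln to Atp2a2, inhibitor to pump, was 0.798 ± 0.128 in controls and 0.907 ± 0.0761 in A-PDK1KO hearts (SD, n = 5 per group). The log2 difference was 0.20 and did not pass (exact permutation p = 0.127, adjusted p = 0.317). Control replicate 1, at 0.983, was above 4 of the 5 A-PDK1KO hearts, and without it the unadjusted exact p was 0.0397 for a log2 difference of 0.28. The ratios of Casq2 to Ryr2 (8.35 ± 0.620 and 7.98 ± 0.454), Trdn to Ryr2 (1.14 ± 0.233 and 1.17 ± 0.157) and Slc8a1 to Atp2a2 (0.00540 ± 0.00129 and 0.00517 ± 0.000361) gave exact permutation p of 0.310, 0.754 and 0.841 (n = 5 per group). Exchanger and pump were both lower on average in A-PDK1KO hearts, and their ratio did not pass.

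**Figure D5:**
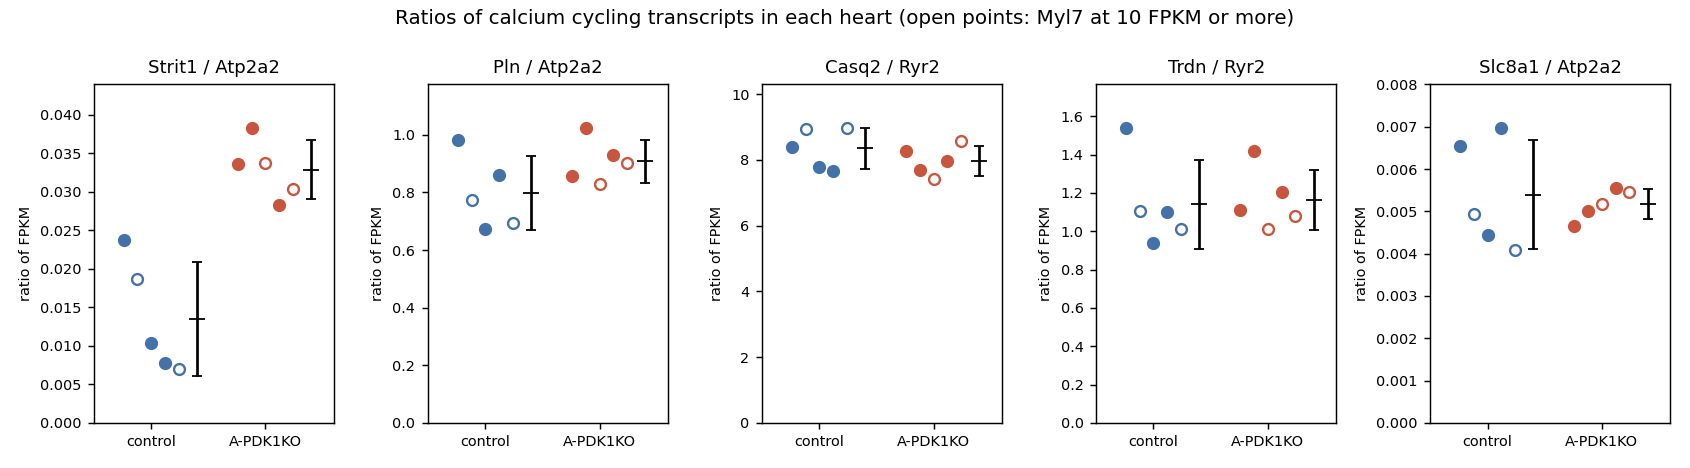
Ratio of FPKM of 2 genes in each heart, control in blue and A-PDK1KO in red, with mean ± SD (n = 5 per group) and open points for hearts with Myl7 at 10 FPKM or more. Groups are apart in the ratio of Strit1 to Atp2a2 and overlap in the other 4, and control replicate 1 is highest in Trdn to Ryr2 at 1.54.

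The wider calcium handling genes were taken from 8 lists of 118 genes, of which 91 were tested. In these, 2 genes were called, both lower and none higher, or 2.20%, beside 2.08% over all tested genes. Log2 fold changes above 0 were found for 54.6% of all tested genes. They were found for 7 of 8 calcium channel genes, 4 of 5 store-operated entry genes, 6 of 11 mitochondrial genes, 5 of 10 pumps and regulators and 9 of 22 kinase, phosphatase and anchor genes, and for fewer in the lists of the release partners (4 of 15), the lumen (3 of 13) and the myofilament (1 of 7). Without mitochondrial and haemoglobin genes in the scaling, 9 of 10 pumps and regulators, 16 of 22 kinase, phosphatase and anchor genes and 9 of 11 mitochondrial genes were above 0. Ppp1ca, a catalytic subunit of protein phosphatase 1, which removes phosphate from phospholamban, was the 1 called of 22 kinase, phosphatase and anchor genes. It was at 83.1 to 91.1 FPKM in controls and 68.9 to 73.4 FPKM in A-PDK1KO hearts, with no overlap and a log2 fold change of -0.30 (limma adjusted p = 0.0127, n = 5 per group), and its call held with each heart left out. It was not called on the TPM scale (adjusted p = 0.0813) or in the 6 hearts with Myl7 under 10 FPKM (adjusted p = 0.385). Hspa5, the chaperone BiP of the lumen, was the 1 called of 13 lumenal genes, at 81.4 to 131.6 FPKM in controls and 69.5 to 77.1 FPKM in A-PDK1KO hearts, a log2 fold change of -0.51 (limma adjusted p = 0.0329). Its call was lost in 8 of 10 fits with 1 heart left out, with an adjusted p of up to 0.0859 without control replicate 3. It was also lost on the TPM scale (adjusted p = 0.0899) and in the 6 hearts with Myl7 under 10 FPKM (adjusted p = 0.0599). Of those 13 genes 10 had a log2 fold change below 0, or 8 without mitochondrial and haemoglobin genes in the scaling.

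Among 15 tested partners of the release channel 0 were called by limma, with 4 at an unadjusted p under 0.05, and 11 of the 15 had a log2 fold change below 0 (10 without mitochondrial and haemoglobin genes in the scaling). Over all tested genes 15.6% had an unadjusted p under 0.05. Jph1, a junctophilin that holds the surface membrane to the reticulum, was at 3.02 to 4.14 FPKM in controls and 4.47 to 5.03 FPKM in A-PDK1KO hearts, without overlap, and missed the threshold (limma adjusted p = 0.0532). Tmem38b, a cation channel of the reticulum, was at 6.44 to 7.93 and 8.14 to 11.2 FPKM (limma adjusted p = 0.108). Among 8 tested calcium channel genes 0 were called, with 3 at an unadjusted p under 0.05. The smallest p belonged to Cacnb2, a subunit of the L-type channel, at 2.90 ± 0.50 and 1.93 ± 0.256 FPKM, and to Rrad, a small GTPase that inhibits that channel, at 62.2 ± 22.9 and 125 ± 37.7 FPKM (SD, n = 5 per group, limma adjusted p = 0.0592 and 0.0605). The groups of Rrad overlapped and those of Cacnb2 did not.

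Other calcium pumps and pump regulators gave 0 called of 10, with 1 at an unadjusted p under 0.05: S100a1, a calcium sensor that binds the pump and the channel, was at 763 ± 41.3 and 685 ± 45.0 FPKM (limma adjusted p = 0.227, n = 5 per group). In that list Vmp1 was at 11.0 ± 0.38 and 12.3 ± 1.08 FPKM. Of 11 mitochondrial calcium genes 0 were called, with 2 at an unadjusted p under 0.05: Mcu, the pore of the uniporter, was at 1.87 ± 0.369 and 2.45 ± 0.311 FPKM and Smdt1, its essential small subunit, at 68.0 ± 4.84 and 60.7 ± 2.63 FPKM. Of 5 store-operated entry genes 0 were called and 0 had an unadjusted p under 0.05. Of 7 myofilament calcium genes 0 were called, with 4 at an unadjusted p under 0.05 and 6 below 0 (4 without mitochondrial and haemoglobin genes in the scaling or after quantile normalization). Beside the counts of these lists, 15.6% of all tested genes had an unadjusted p under 0.05. Tnni3, the inhibitory troponin, was at 2157 ± 94.2 and 1865 ± 71.0 FPKM, and Mylk3, the cardiac myosin light chain kinase, at 183 ± 8.90 and 149.8 ± 18.7 FPKM (limma adjusted p = 0.0605 and 0.0773). The groups of Tnni3 did not overlap.

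Depth was even, at 9249255 to 11384424 counted reads per heart as recovered from the value of 1 read, and the share of mitochondrial reads was 32.7% to 41.5%. The lowest shares were in control replicate 4 (32.7%) and A-PDK1KO replicate 2 (34.3%). Control replicate 4 was the highest heart in Pln, Casq2, Ryr2 and Slc8a1, and A-PDK1KO replicate 2 in Strit1, Trdn and Asph. Other hearts were highest in Atp2a2, Hrc and Sln, and a link to the mitochondrial share was not tested. Ventricular markers summed to 7182 to 8051 FPKM in controls and 6546 to 7453 FPKM in A-PDK1KO hearts, the ventricular light chain Myl2 being the highest of them. Adipocyte markers were near the floor, with 1 of 6 in the table and sums of 0 to 1.36 FPKM over all hearts, and the lung and nerve markers (0 of 4 and 0 of 4 in the table) were not analysed here. Haemoglobin and other red blood cell genes summed to 27.9 to 1391 FPKM in controls and 68.6 to 228 FPKM in A-PDK1KO hearts.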

How the data were processed

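Heart RNA of 10 mice, 5 per genotype, was grouped by the title of each sample. The deposited values are FPKM, 1 column per sample, which the authors made from paired-end reads. Per the submitters' processing notes, the tools were Trimmomatic 0.38, HISAT2 2.1.0 and featureCounts 1.6.3, with mm10 as the build, and reads were assessed with FastQC 0.11.7, per the labels' protocols. The sources used here state no annotation, strand setting or batch. Genes that reach 1 FPKM in no sample are not analysed here.

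The test was limma 3.58.1 under R 4.3.3, for genes averaging 1 FPKM or more over the hearts, on log2(FPKM + 1), with an empirical Bayes trend, two-sided and with no covariate. The fit covered all genes, p-values were adjusted by Benjamini-Hochberg and the threshold was 0.05. Such fold changes understate the change of low genes. Whole reads were recovered with merged exon lengths of GENCODE mouse release M21 (mm10 coordinates). They came out whole within 0.05 of a read for 98.5% of values, in all samples for 11579 genes and for all 10 members, and limma voom on them called 230 genes. The limma fit on log2(FPKM + 1) was also checked on simulated data, and the recovery of reads and limma voom were not. The simulation gave both groups the same spread between hearts, whereas Strit1 varied more in controls than in A-PDK1KO hearts. Ratios were tested in Python 3.11.15.

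The members and lists were chosen with earlier results of these data known. The text names all members, up to 4 called genes of each list or, where none was called, up to 2 of smallest p (values only), the highest marker of a list where it is used, Myl7, Myl4, Nppa, and the 5 genes most like Strit1, of which 1 is not reported here. Alternatives were another pseudocount, other filters and scalings, robust variances, a replicate block, recovered reads, Myl7 as a covariate, the hearts with Myl7 under 10 FPKM, each heart left out and, added after seeing the data, removal of a length trend.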

Additional observations from a re-analysis of the deposited data

Results flagged for a closer look

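The ratio of Trdn to Ryr2, triadin to its channel, was 1.54 in control replicate 1, while the other 4 controls lay between 0.940 and 1.11. The gap of that heart to its nearest neighbour was 0.720 of the range of the group, above the critical value of 0.71 for 5 samples. It was the 1 such sample in 30 groups of values checked, and chance gives about 1 in 20. Control replicate 1 was also the control with the lowest Atp2a2, Hrc, Casq2 and Ryr2 and the highest Strit1 and Trdn. The cause was not tested.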

How the results depend on the processing

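The number of genes called was 208 (121 higher, 87 lower). It was 58 on the TPM scale, 390 (323 higher, 67 lower) without mitochondrial and haemoglobin genes in the scaling, 4 in the 6 hearts with Myl7 under 10 FPKM, and 57 to 150 with each heart left out. With median-of-ratios factors the 207 calls were 102 higher and 105 lower. The number of members called was 1, or 0 with robust variances and in the hearts with Myl7 under 10 FPKM, and 0 to 2 with each heart left out. Strit1 kept its direction in every setting run. Sln fell under the filter of 5 FPKM and among the hearts with Myl7 under 10 FPKM, so those settings give no value for it.

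With each heart left out, log2 fold changes ran from -0.0611 to 0.00261 in Pln, -0.76 to 0.24 in Sln, -0.0426 to 0.0430 in Ryr2 and -0.0717 to 0.12 in Trdn, so the directions of these 4 genes are not settled. Signs also turned in Pln (0.0371) and Ryr2 (0.0618) without mitochondrial and haemoglobin genes in the scaling, in Ryr2 on the TPM scale (0.00531) and after quantile normalization (0.0205), and in Trdn after removal of the length trend (-0.00949). Log2 differences of the ratios with each heart left out ran from 0.14 to 0.28 for Pln to Atp2a2, -0.0298 to 0.16 for Trdn to Ryr2 and -0.12 to 0.0677 for Slc8a1 to Atp2a2. In the hearts with Myl7 under 10 FPKM the ratio of Strit1 to Atp2a2 differed by 1.42 (exact permutation p = 0.1, the smallest that 3 against 3 can give) and that of Casq2 to Ryr2 turned to 0.00458.

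The replicate numbers do not pair the hearts: same-numbered hearts had correlations of their deviations from the group means of -0.116 to 0.0851, and 0 of 10 hearts correlated best with their own number. With a replicate block 153 genes were called, and for the ratio of Strit1 to Atp2a2 a log2 difference of 1.45 gave an exact paired permutation p of 0.0625, the smallest that 5 pairs allow. The block left Strit1 called and Hspa5 not called (adjusted p = 0.0525). Hspa5 was also lost with 1 heart left out in 8 of 10 fits (up to 0.0859 without control replicate 3). Depth limits Strit1 most, at 28 to 121 reads per heart. Sln had 0 reads in the 6 hearts with Myl7 under 10 FPKM, among them A-PDK1KO replicate 4, the largest library.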

Other observations

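Genes whose heart-to-heart deviations from their group means were among the most like those of Strit1 were found among 4601 genes averaging 5 FPKM or more in the 10 hearts. They include Mgst3, a microsomal glutathione transferase (Pearson r = 0.97), the ribosomal protein genes Rps25 (r = 0.94) and Rpl26 (r = 0.91), and Ndufb4, a subunit of respiratory complex I (r = 0.93). These are descriptions picked as the highest of many, with no test, and the values share their libraries. Spearman's rho was 0.76 to 0.98 for these 4. Between genotypes Rps25, Rpl26 and Ndufb4 had log2 fold changes of -0.16, -0.17 and -0.17, and Mgst3 had 0.06. None of the 4 was called by limma. Within the set, deviations of Strit1 ran against those of Hrc (r = -0.75) and Atp2a2 (r = -0.61) and had little relation to those of Pln (r = -0.01). Strit1 varied mainly among the controls, with a coefficient of variation of 45.5%, against 8.02% in A-PDK1KO hearts. All of these correlations therefore rest mainly on the 5 controls.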
